A study of Mus musculus with 8 samples.

Results

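Dendritic cells are the leukocytes that take up material from dying cells, carry it to lymph nodes and present it to T cells. Their subsets are told apart by a small set of genes, and 10 of these were followed here among the 57132 genes of the count table. The 10 were chosen by symbol, each symbol lay on 1 identifier, and all 10 passed the filter on low counts. Xcr1, Clec9a and Batf3 mark conventional type 1 dendritic cells (cDC1), which cross-present antigen to CD8 T cells. Irf8 is needed by cDC1 and is also high in plasmacytoid dendritic cells (pDC), the type I interferon producers, which carry Siglech. Cd209a stands for conventional type 2 cells (cDC2), which mainly prime CD4 T cells. Ccr7 and Fscn1 mark mature, migratory cells, and Zbtb46 and Flt3 are shared by the conventional subsets.

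Bulk RNA was sequenced from KPC tumours, a pancreatic cancer model, grown under the skin of mice. In 4 samples the mice had received Ce6@D4-EV and light (photodynamic therapy, PDT), where Ce6 is the photosensitiser chlorin e6 and D4-EV its carrier as the submitters name it. In the other 4 the mice had received PBS, a buffered saline. The tissue is labelled as sorted with no gate named, the sources used here give no strain, sex, age or harvest time, and neither light without carrier nor carrier without light was analysed here. The labels do not tie samples to animals, so the p-values reflect only how these samples spread, which may be technical. Summed counts were 39026840 to 48804713 per PDT library and 35742024 to 40337306 per PBS library. Levels are read counts scaled to library size (CPM), and 3 reads, the limit that a count of 0 allows, corresponded to 0.0665 to 0.0872 CPM. In bulk tissue, fewer cells of a type and less RNA per cell cannot be told apart.

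The stretches of DNA around the start sites of 4 of these genes are shown because the proteins of Irf8 and Batf3, themselves in the set, act by binding DNA beside Ets and AP-1 factors in this lineage. RefSeq windows of the GRCm38.p6 build, from 250 bases before to 50 after a start, were found for 9 of the 10 genes, in 10 windows since Irf8 has a pair. Irf8 (the upstream one of its pair), Xcr1, Clec9a and Cd209a are printed 5′ to 3′ in the gene's own direction, in lower case with a matched motif in capitals.
Irf8, chr8:120736108-120736407, plus strand: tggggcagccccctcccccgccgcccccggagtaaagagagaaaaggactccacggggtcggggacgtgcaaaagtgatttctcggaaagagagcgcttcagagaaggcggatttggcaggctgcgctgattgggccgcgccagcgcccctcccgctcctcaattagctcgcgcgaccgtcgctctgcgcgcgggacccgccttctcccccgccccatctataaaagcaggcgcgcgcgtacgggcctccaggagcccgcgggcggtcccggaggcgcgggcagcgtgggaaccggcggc
Xcr1, chr9:123861980-123862279, minus strand: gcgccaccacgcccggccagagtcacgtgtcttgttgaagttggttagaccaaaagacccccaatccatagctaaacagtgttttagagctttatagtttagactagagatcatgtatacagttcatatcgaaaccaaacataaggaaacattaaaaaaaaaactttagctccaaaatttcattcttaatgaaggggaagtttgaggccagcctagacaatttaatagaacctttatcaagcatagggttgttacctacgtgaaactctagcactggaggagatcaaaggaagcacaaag
Clec9a, chr6:129408612-129408911, plus strand: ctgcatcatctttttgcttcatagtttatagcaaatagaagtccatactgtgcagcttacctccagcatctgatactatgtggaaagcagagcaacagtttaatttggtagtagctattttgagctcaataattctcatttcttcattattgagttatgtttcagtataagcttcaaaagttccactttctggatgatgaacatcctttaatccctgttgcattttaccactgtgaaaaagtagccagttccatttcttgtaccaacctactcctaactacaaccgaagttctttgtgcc
Cd209a, chr8:3748935-3749234, minus strand: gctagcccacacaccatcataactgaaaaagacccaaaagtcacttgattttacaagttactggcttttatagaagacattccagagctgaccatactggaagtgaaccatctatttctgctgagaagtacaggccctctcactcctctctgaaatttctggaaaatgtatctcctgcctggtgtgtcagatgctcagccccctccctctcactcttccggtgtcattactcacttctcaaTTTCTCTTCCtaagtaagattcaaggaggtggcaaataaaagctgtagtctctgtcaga

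3 motifs were searched on both strands. The interferon-stimulated response element (GAAA, any 2 bases, GAAA) was in 0 of the 10 windows, against 3.44% of 32851 windows of the same length. The Ets-IRF element (GGAA, any 2 bases, GAAA), which differs from it by a single letter, was in 1, that of Cd209a, beginning 9 bases before the start and on the opposite strand, against 2.72% of all windows. The AP-1 element (TGANTCA) was also in 1, as TGACTCA, beginning 61 bases before a start of Zbtb46, against 7.81%. A match describes these letters and not a bound site, and a window without one says nothing of the factor.

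No marker of the set passed the test between treated and control tumours. In edgeR's quasi-likelihood test 0 of the 10 markers passed an adjusted p of 0.05, where 0.235% of 16588 tested genes did, 0.163% being higher in PDT and 0.0723% lower. Irf8 was the 1 marker with an unadjusted p under 0.05, against 16.5% of all tested genes. DESeq2 called 0 markers, giving no adjusted p for Xcr1, Clec9a and Siglech, and 1 marker had an unadjusted p under 0.05, where it called 5.24% of all tested genes and 17.2% had such a p. Limma-voom called 0 of the 10, and 3 had an unadjusted p under 0.05, where it called 1.01% of all tested genes and 18.7% had such a p. Of the 10 markers 5 were higher and 5 lower in PDT, with a median log2 fold change of 0.03, while 49.8% of all tested genes were higher, with a median of −0.002. In 0 of the 10 did the 4 PDT values lie wholly on one side of the 4 PBS values, as they did in 10.1% of tested genes, 5% with PDT above and 5.12% with PDT below. With 1 library left out this share was 12.9%, 17.2%, 13.4% and 12.7% without PDT 1 to PDT 4, and 15%, 14.1%, 13.7% and 17.3% without PBS 1 to PBS 4. It then held for Ccr7 without PDT 2, for Irf8 without PDT 3 or PBS 1, for Fscn1 without PBS 4, and for 0 markers otherwise.

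**Figure D1:**
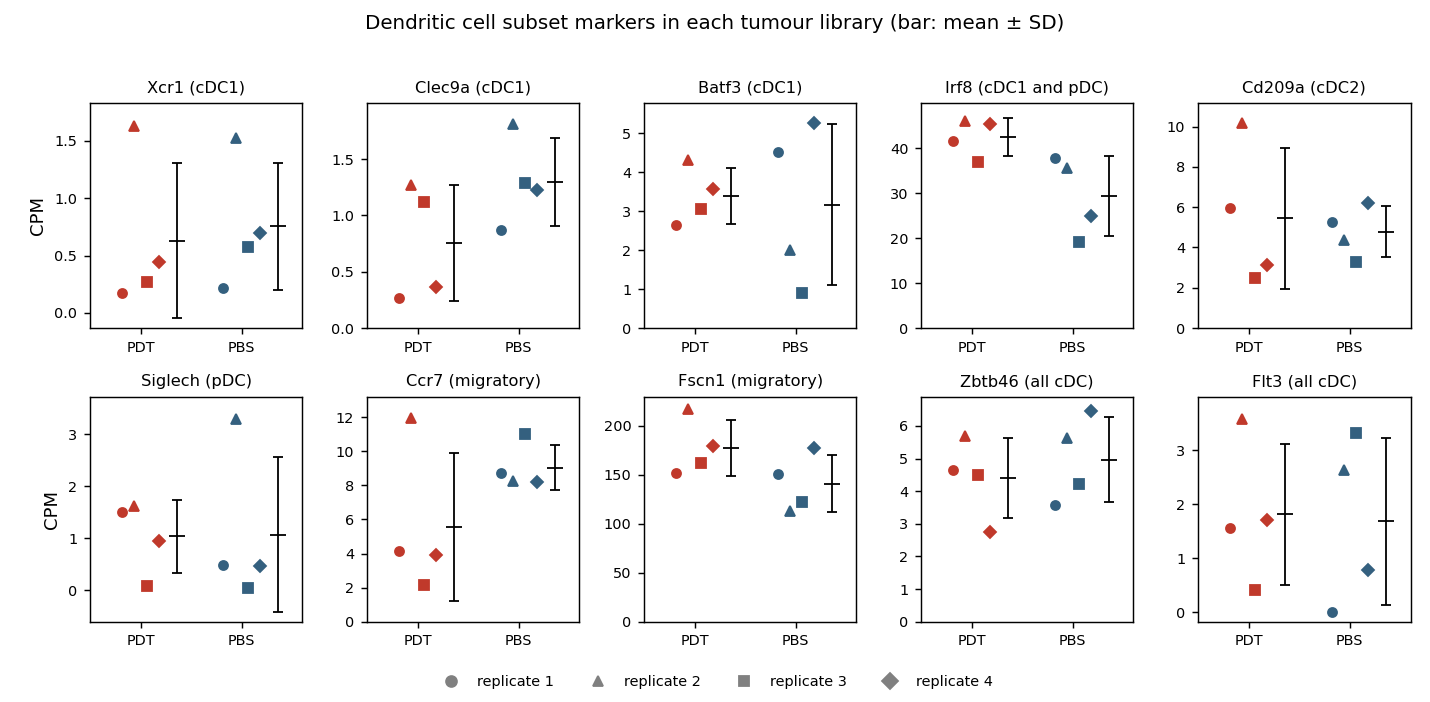
Level of each dendritic cell marker in CPM (y axes, linear, 1 scale per gene) in 4 PDT and 4 PBS libraries; symbols are replicates and bars are mean ± SD. The triangle of PDT 2 is the highest of all 8 points for Xcr1, Irf8, Cd209a, Ccr7, Fscn1 and Flt3, and the groups overlap for every gene.

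The cDC1 surface genes were scarce in both groups. Xcr1 (ENSMUSG00000060509), the receptor for the chemokine Xcl1, was at 0.177, 1.63, 0.268 and 0.440 CPM in PDT 1 to PDT 4, against 0.218, 1.53, 0.578 and 0.698 CPM in PBS 1 to PBS 4. PDT 2 and PBS 2, with 64 reads each, stood above the other libraries, which had 8 to 24 reads. Its log2 fold change was −0.27 ± 0.91 (SE, adjusted p = 0.928 by edgeR), and the 95% interval of the fold was 0.211 to 3.28. Clec9a (ENSMUSG00000046080), a lectin that recognises actin filaments exposed by dead cells, was at 0.266, 1.27, 1.12 and 0.367 CPM in PDT 1 to PDT 4. In PBS 1 to PBS 4 it was at 0.871, 1.81, 1.29 and 1.22 CPM. PDT 1 and PDT 4 lay below all PBS libraries while PDT 2 and PDT 3 lay among them. The means were 0.755 ± 0.513 CPM in PDT and 1.298 ± 0.388 CPM in PBS (SD, n = 4 each), a log2 fold change of −0.78 ± 0.68 (SE, adjusted p = 0.627 by edgeR).

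The transcription factors of the cDC1 lineage were more abundant on average. Their log2 fold changes were positive and those of the surface genes negative, a contrast that was not tested. Batf3 (ENSMUSG00000026630), an AP-1 family factor that cDC1 depend on, was at 2.64, 4.31, 3.06 and 3.57 CPM in PDT 1 to PDT 4, against 4.52, 2.003, 0.894 and 5.26 CPM in PBS 1 to PBS 4. The PDT values sat within the wider PBS range, and the log2 fold change was 0.10 ± 0.50 (SE, adjusted p = 0.951 by edgeR). Irf8 (ENSMUSG00000041515) was at 41.6, 46.1, 36.9 and 45.4 CPM in PDT 1 to PDT 4. In PBS 1 to PBS 4 it was at 37.8, 35.6, 19.2 and 24.8 CPM. PDT 3 lay just below PBS 1, the only crossing of the 2 groups. Its mean was 42.5 ± 4.25 CPM in PDT and 29.4 ± 8.81 CPM in PBS (SD, n = 4 each), a 1.45-fold difference with a 95% interval of 1.07 to 1.97. The log2 fold change of 0.53 ± 0.20 (SE) had an unadjusted p of 0.0219 and an adjusted p of 0.212 by edgeR, and did not pass the threshold.

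Irf8 is also transcribed in monocytes, macrophages and B cells. All 15 macrophage and monocyte genes listed for comparison were higher in PDT, their median being 0.54 on the log2 scale, and 1 of them, Cd68, passed at 0.85 ± 0.15 (SE, adjusted p = 0.0497 by edgeR). The Cd68 call was lost without any 1 of the 8 libraries, at adjusted p-values of 0.0527 to 0.163. Their summed level was 5130 to 6875 CPM in PDT libraries and 2203 to 4281 CPM in PBS libraries. Lyz2 was the largest part of that sum, at 3105 to 4441 CPM in PDT and 1132 to 2319 CPM in PBS. Per 1000 CPM of the sum Irf8 was at 6.05, 7.48, 7.19 and 8.56 CPM in PDT 1 to PDT 4, and at 8.82, 9.14, 8.72 and 7.32 CPM in PBS 1 to PBS 4. The higher level of Irf8 was not seen relative to this sum, which mainly reflects Lyz2. Of 10 B cell genes 6 did not pass the filter on low counts, Ms4a1, Cd79a, Pax5, Cr2 and Fcer2a among them. The B cell sum was 33.4 to 46.1 CPM in PDT and 24.2 to 55.5 CPM in PBS, overlapping. The part of either cell type in the Irf8 values was not tested.

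The single cDC2 marker varied more within PDT than within PBS. Cd209a (ENSMUSG00000031494), a mouse relative of DC-SIGN that binds sugars, was at 5.94, 10.2, 2.50 and 3.13 CPM in PDT 1 to PDT 4, against 5.28, 4.36, 3.26 and 6.22 CPM in PBS 1 to PBS 4. PDT 2 was the highest library and PDT 3 and PDT 4 the lowest of all 8. The means of 5.44 ± 3.505 CPM in PDT and 4.78 ± 1.27 CPM in PBS (SD, n = 4 each) differed by 0.19 ± 0.43 on the log2 scale (SE, adjusted p = 0.888 by edgeR). Without PDT 2 the log2 difference was −0.30. Cd209a is also found on monocyte-derived cells, and it has close relatives in the genome that could share reads with it.

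Siglech (ENSMUSG00000051504), a lectin that in mice marks pDC and also microglia, was close to the limit of detection in a pair of libraries. It was at 1.51, 1.63, 0.0892 and 0.953 CPM in PDT 1 to PDT 4, against 0.4898, 3.29, 0.0526 and 0.465 CPM in PBS 1 to PBS 4. PDT 3 held 4 reads and PBS 3 held 2, while PBS 2 held 138, the most of any library. The log2 fold change was −0.04 ± 1.07 (SE, adjusted p = 0.991 by edgeR), and the 95% interval of the fold, 0.191 to 4.92, spans large changes in both directions. It was 1.63 on the log2 scale without PBS 2. The summed level of 5 microglia genes was 112 to 158 CPM in PDT and 94.3 to 132 CPM in PBS, so those transcripts were present, and their part in the Siglech values was not tested.

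The difference in Ccr7 depended on 1 library in size but not in direction. Ccr7 (ENSMUSG00000037944), the receptor that guides mature dendritic cells to lymph nodes, was at 4.17, 11.9, 2.14 and 3.93 CPM in PDT 1 to PDT 4. In PBS 1 to PBS 4 it was at 8.71, 8.25, 10.99 and 8.20 CPM. PDT 1, PDT 3 and PDT 4 lay below every PBS library and PDT 2 above every one. Across all 8 libraries the fold was 0.613 with a 95% interval of 0.316 to 1.19, a log2 fold change of −0.71 ± 0.44 (SE, adjusted p = 0.466 by edgeR). Without PDT 2 the log2 fold change was −1.39 (adjusted p = 0.0722 by edgeR), still short of the threshold. In that fit Ccr7 was the 1 marker whose groups did not overlap, as was the case for 17.2% of tested genes. Naive and memory T cells carry Ccr7 too, and 9 of 10 T cell genes were higher in PDT, and their sum was 22.6 to 33.3 CPM in PDT libraries and 13.3 to 20.7 CPM in PBS libraries. Their part in the Ccr7 values was not tested.

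Fscn1, the other migratory marker, averaged higher in PDT without passing the test. Fscn1 (ENSMUSG00000029581) encodes fascin, an actin-bundling protein of dendrites that invasive tumour cells and mesenchymal cells also make. It was at 152, 217, 161 and 179 CPM in PDT 1 to PDT 4, against 151, 113, 122 and 177 CPM in PBS 1 to PBS 4. PDT 2 was again the highest library, and PDT 1 and PDT 3 lay between the PBS values. The means of 177 ± 28.6 CPM in PDT and 141 ± 29.2 CPM in PBS (SD, n = 4 each) differed by 0.33 ± 0.17 on the log2 scale (SE, adjusted p = 0.35 by edgeR). The sums of 7 tumour epithelium genes, 3041 to 6113 CPM in PDT and 3479 to 7136 CPM in PBS, and of 6 fibroblast genes, 8248 to 9760 CPM in PDT and 4902 to 10409 CPM in PBS, overlapped between groups. Per kilobase of exon Fscn1 stood at 58.9 CPM in PDT and 46.7 CPM in PBS, against 2.80 and 4.57 CPM for Ccr7. That gap between the pair of migratory markers is one of level. Their log2 fold changes had opposite signs, −0.71 for Ccr7 and 0.33 for Fscn1, and neither passed the test.

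Neither gene shared by the conventional subsets passed the test. Zbtb46 (ENSMUSG00000027583), a transcription factor of conventional dendritic cells and of endothelium, was at 4.66, 5.68, 4.50 and 2.74 CPM in PDT 1 to PDT 4, against 3.59, 5.63, 4.21 and 6.45 CPM in PBS 1 to PBS 4. PDT 4 was its lowest library and PBS 4 its highest. The log2 fold change was −0.18 ± 0.32 (SE, adjusted p = 0.848 by edgeR), and its 95% interval in fold was 0.542 to 1.44. The sum of 8 endothelial genes was 85.4 to 113 CPM in PDT and 81.9 to 97.3 CPM in PBS, and its part in the Zbtb46 values was not tested. Flt3 (ENSMUSG00000042817), the receptor for the growth factor Flt3l that drives dendritic cell development, was at 1.55, 3.57, 0.401 and 1.71 CPM in PDT 1 to PDT 4. In PBS 1 it had 0 reads, which allows up to 0.0816 CPM, and PBS 2 to PBS 4 were at 2.62, 3.31 and 0.785 CPM. PBS 1 was the 1 library without a Flt3 read, the groups overlapped, and the log2 fold change was 0.10 ± 1.03 (SE, adjusted p = 0.977 by edgeR). The 95% interval of its fold, 0.224 to 5.13, spans large changes in both directions.

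**Figure D2:**
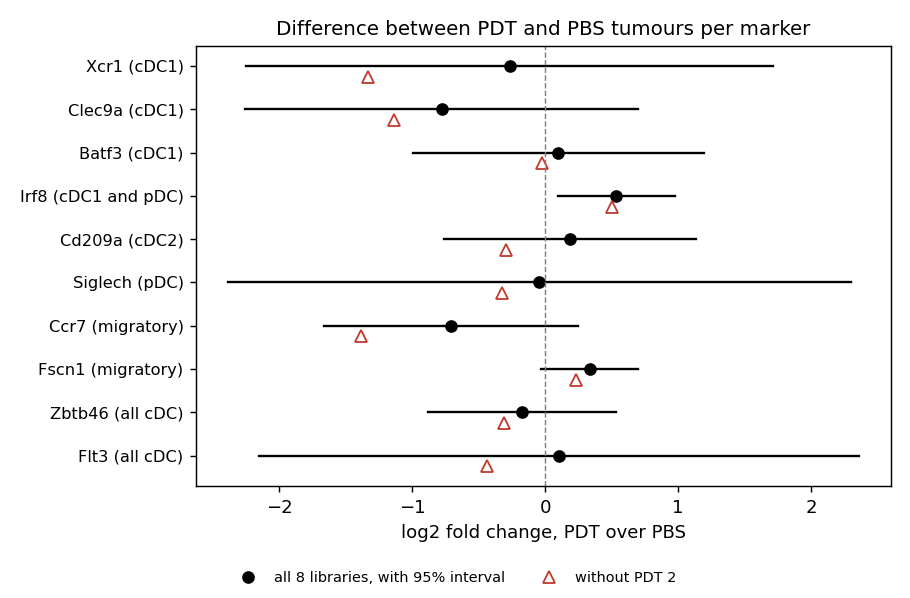
Log2 fold change, PDT over PBS (x axis), of each marker in all 8 libraries (black points with 95% interval) and without PDT 2 (open triangles). The interval of Irf8, 0.09 to 0.98, is the 1 that does not include 0, though its adjusted p is 0.212 by edgeR. Leaving out PDT 2 moves Ccr7 to −1.39 and Xcr1 to −1.34. A shift downwards was fixed in advance, as PDT 2 is the highest PDT library for each marker. Without PBS 2, not drawn, Xcr1 is at 0.33.

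Levels per kilobase of exon put Fscn1 first and Xcr1 last in both groups. In PDT the order was Fscn1, Irf8, Cd209a, Ccr7, Batf3, Zbtb46, Siglech, Flt3, Clec9a and Xcr1, with means from 58.9 down to 0.141 CPM per kilobase. The ranges of neighbours in this order overlapped except between Fscn1 and Irf8 and between Batf3 and Zbtb46. In PBS the order was Fscn1, Ccr7, Irf8, Cd209a, Batf3, Zbtb46, Clec9a, Siglech, Flt3 and Xcr1, from 46.7 down to 0.1695 CPM per kilobase, and only Fscn1 stood apart from its neighbour. Replicate spread was smallest for Irf8 in PDT, with a coefficient of variation of 9.99%, and largest for Siglech in PBS, at 139%. For Ccr7 it was 78.5% in PDT and 14.6% in PBS.

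PDT 2 was the highest PDT library for every marker, by a wide margin for Xcr1, Ccr7 and Flt3 and by a narrow one for Irf8, Siglech and Clec9a. Among all 8 libraries it held the highest level of 6 of the 10 and 1 of the 2 highest of 8, while PDT 1 and PDT 3 held the highest of 0. Summed over the 8 markers other than Fscn1 and Irf8, a choice made after the values were seen, PDT 1 to PDT 4 reached 20.9, 40.2, 14.1 and 16.8 CPM. PBS 1 to PBS 4 reached 23.7, 29.5, 24.6 and 29.3 CPM. The PDT libraries other than PDT 2 lay below all PBS libraries and PDT 2 above them all. Ccr7 was the largest part of the sum in every PBS library, at 8.20 to 10.99 CPM. It was at 2.14 to 4.17 CPM in PDT 1, PDT 3 and PDT 4. The pattern of the sum was not that of each marker, as Cd209a in PDT 1, at 5.94 CPM, lay above PBS 1 to PBS 3. Without PDT 2, 8 of the 10 markers were lower in PDT, the median over all 10 being −0.32 on the log2 scale, and edgeR called 0, with 1 at an unadjusted p under 0.05. A shift downwards was fixed in advance, as PDT 2 was the highest PDT library for each marker. With any other library left out, 4 to 7 of the 10 were higher in PDT, with medians of −0.29 to 0.24. Per 1000 CPM of the macrophage sum, of which Lyz2 was the largest part, the 8 markers stood at 3.04, 6.52, 2.74 and 3.17 CPM in PDT 1 to PDT 4. The same ratio was 5.53, 7.58, 11.2 and 8.64 CPM in PBS 1 to PBS 4. PDT 2 alone of the PDT libraries reached the PBS range. The macrophage sum was itself higher in PDT, at 5130 to 6875 CPM against 2203 to 4281 CPM in PBS. Markers at an unchanged level would therefore also give a lower ratio in PDT.

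**Figure D3:**
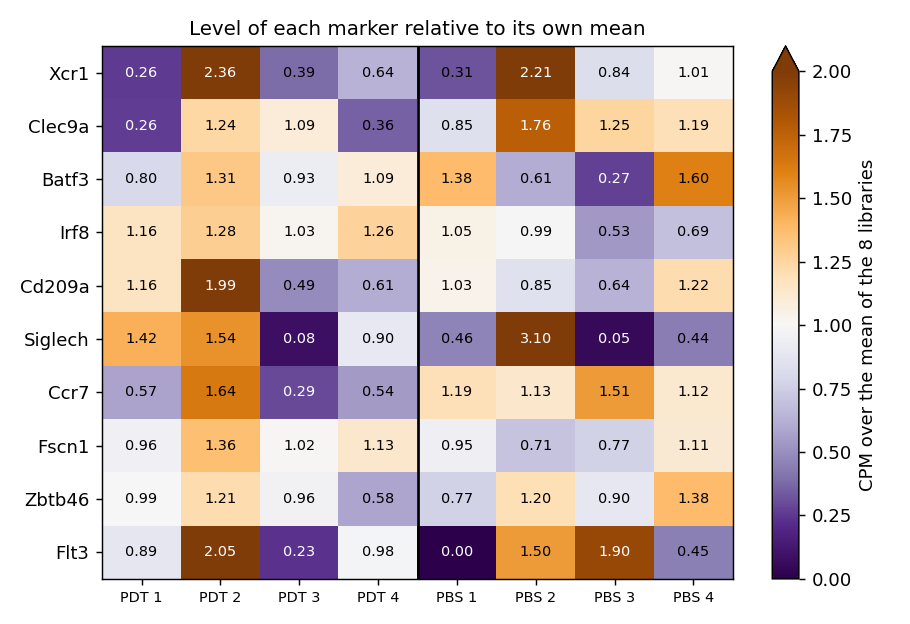
CPM of each marker (rows) in each library (columns, PDT left of the line and PBS right of it) divided by the gene's mean over the 8 libraries; colours run from 0 to 2 and values above 2 share the last colour. The column of PDT 2 is above 1 in all 10 rows, whereas PDT 3 ranges from 0.08 for Siglech to 1.09 for Clec9a.

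**Figure D4:**
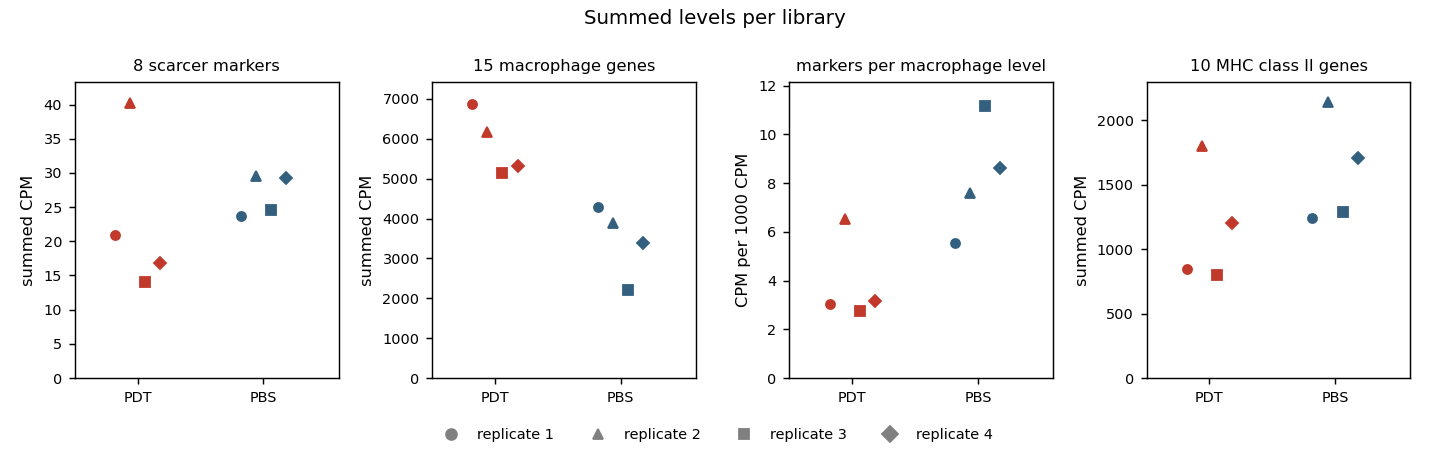
Summed CPM per library of the 8 scarcer markers, of 15 macrophage and monocyte genes and of 10 MHC class II genes, and the first sum per 1000 CPM of the second (y axes from 0; symbols are replicates). Macrophage sums of PDT libraries, 5130 to 6875 CPM, lie above those of PBS libraries, 2203 to 4281 CPM, while PDT 1, PDT 3 and PDT 4 have the lowest sums of the scarcer markers. Ccr7 is the largest part of the scarcer-marker sum in every PBS library, and Lyz2 is the largest part of the macrophage sum in every library.

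Other genes of the same lineages were listed by subset, and their counts stand beside the shares over all tested genes given above: 16.5% at an unadjusted p under 0.05 in edgeR, and 0.235%, 5.24% and 1.01% called in edgeR, DESeq2 and limma-voom. Of 10 tested cDC1 genes 5 were higher and 5 lower in PDT, the median being −0.06 on the log2 scale, with 0 calls in edgeR, 2 at an unadjusted p under 0.05, 1 call in DESeq2 and 0 in limma-voom. Rab7b, a small GTPase of lysosomal transport, was at 23.6 ± 3.0002 CPM in PDT and 15.01 ± 3.06 CPM in PBS (SD, n = 4 each), a log2 fold change of 0.65 ± 0.18 (SE, adjusted p = 0.115 by edgeR). Itgae, the CD103 integrin chain of tissue cDC1 and of resident T cells, was at 1.82, 6.88, 1.65 and 2.71 CPM in PDT 1 to PDT 4 and at 5.44 to 8.63 CPM in PBS. PDT 2 lay within the PBS range and the other PDT libraries below it, with a log2 fold change of −1.04 ± 0.44 (SE, adjusted p = 0.268 by edgeR).

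Of 11 cDC2 genes 6 were higher and 5 lower, with a median of 0.12, and 1 passed in edgeR, 3 having an unadjusted p under 0.05, with 2 calls in DESeq2 and 1 in limma-voom. Sirpa, the inhibitory receptor for CD47 that macrophages and neutrophils carry as well, was at 142, 139, 141 and 135 CPM in PDT 1 to PDT 4, against 86.1, 90.7, 62.2 and 79.2 CPM in PBS 1 to PBS 4. The groups did not overlap, and Sirpa rose by 0.81 ± 0.13 on the log2 scale (SE, adjusted p = 0.0445 by edgeR). Its call was lost without PDT 1, PDT 3, PDT 4, PBS 1, PBS 2 or PBS 3, at adjusted p-values of 0.0654 to 0.145. The 15 macrophage genes also had positive log2 fold changes. In 6 of the 15 all PDT values lay above all PBS values, as in 5% of tested genes. Their part in the Sirpa values was not tested. Clec4a2, an inhibitory lectin of myeloid cells with near relatives beside it, was at 67.3 ± 19.8 CPM in PDT and 36.2 ± 16.4 CPM in PBS (SD, n = 4 each), a log2 fold change of 0.89 ± 0.29 (SE, adjusted p = 0.158 by edgeR). Some other cDC2 genes, named after their values were seen, had negative differences. Mgl2, a lectin, was at 13.1 ± 6.69 CPM in PDT and 23.4 ± 6.42 CPM in PBS (SD, n = 4 each), a log2 fold change of −0.83 (adjusted p = 0.238 by edgeR). Irf4, a transcription factor of cDC2, was at 1.73 to 2.77 CPM in PDT and 3.05 to 5.06 CPM in PBS, with no overlap and a log2 fold change of −0.75 (adjusted p = 0.319 by edgeR). The log2 fold changes of Cd209d and Itgax were −1.71 and −0.48 (adjusted p = 0.334 and 0.368), and edgeR called Cd209d without PDT 2.

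Of 11 tested pDC genes 5 were higher and 6 lower, with a median of −0.04 and 0 calls in edgeR, 4 at an unadjusted p under 0.05, 3 calls in DESeq2 and 1 in limma-voom. Runx2, a factor of pDC maturation better known from bone, was at 23.01 to 34.8 CPM in PDT and 39.8 to 58.2 CPM in PBS, a log2 fold change of −0.78 ± 0.17 (SE, adjusted p = 0.0678 by edgeR). Bst2, an interferon-inducible surface protein of pDC, was at 63.8 to 97.1 CPM in PDT and 31.4 to 63.1 CPM in PBS, a log2 fold change of 0.91 ± 0.23 (SE, adjusted p = 0.0985 by edgeR). Neither gene's groups overlapped, and they lay in opposite directions.

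Genes of maturation and migration were lower in PDT for 13 of 19 tested members, with a median of −0.09 and 0 calls in edgeR, 2 at an unadjusted p under 0.05, and 0 in DESeq2 and limma-voom. Socs2, a suppressor of cytokine signalling, was at 50.2 ± 5.99 CPM in PDT and 70.1 ± 11.8 CPM in PBS (SD, n = 4 each), a log2 fold change of −0.48 ± 0.15 (SE, adjusted p = 0.148 by edgeR). Birc3, an inhibitor of apoptosis induced by NF-kappaB, was at 25.4 to 36.98 CPM in PDT and 18.8 to 24.3 CPM in PBS, with no overlap and a log2 fold change of 0.39 ± 0.16 (SE, adjusted p = 0.253 by edgeR).

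Of 13 genes of dendritic cell development 9 were higher, with a median of 0.27 and 0 calls in edgeR, 3 at an unadjusted p under 0.05, and 1 call each in DESeq2 and limma-voom. Spi1, which encodes the myeloid factor PU.1 and is high in macrophages too, was at 80.4 to 104 CPM in PDT and 37.2 to 63.7 CPM in PBS, a log2 fold change of 0.83 ± 0.17 (SE, adjusted p = 0.0609 by edgeR). Csf2ra, a chain of the GM-CSF receptor, differed by 0.51 ± 0.23 on the log2 scale (SE, adjusted p = 0.291 by edgeR).

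**Figure D5:**
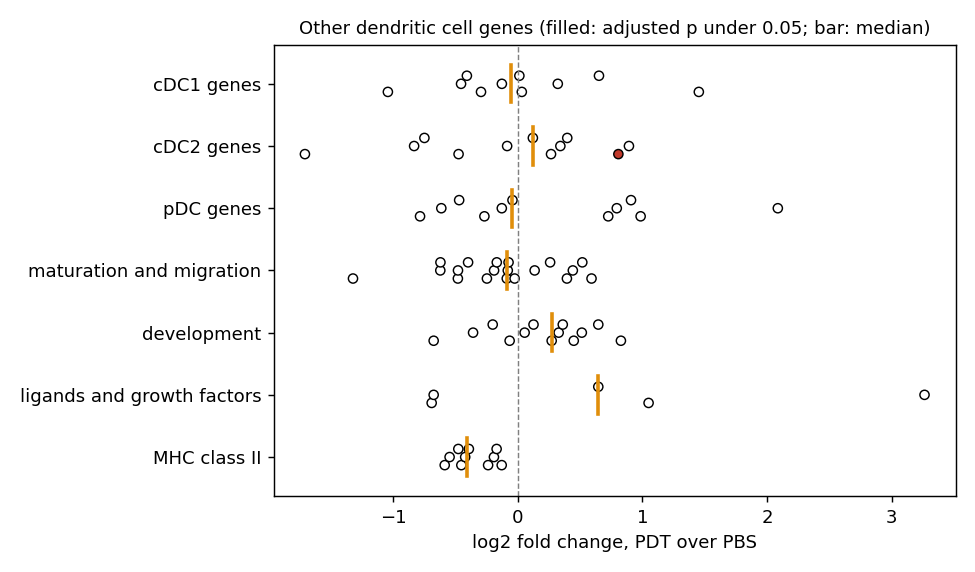
Log2 fold change, PDT over PBS (x axis), of each tested gene in 7 lists of other dendritic cell genes (rows); bars are list medians and the filled point, Sirpa at 0.81, is the 1 gene past an adjusted p of 0.05. All 10 MHC class II genes lie below 0, with a median of −0.41, and the other lists straddle 0.

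Of 5 ligands and growth factors of dendritic cell receptors, 3 were higher and 2 lower in PDT, with a median of 0.65 on the log2 scale, and most were scarce. In edgeR 0 passed and 2 had an unadjusted p under 0.05, and DESeq2 and limma-voom called 0. Xcl1, the ligand of Xcr1 made by NK and cytotoxic T cells, had 18, 58, 29 and 42 reads in PDT 1 to PDT 4, against 0, 6, 8 and 0 reads in PBS 1 to PBS 4. Even the lowest PDT library exceeded the highest PBS library at this low depth, and the log2 fold change of 3.26 ± 1.18 (SE) had an adjusted p of 0.195 by edgeR. Flt3l, the ligand of Flt3, was at 2.11 ± 0.946 CPM in PDT and 1.35 ± 0.272 CPM in PBS (SD, n = 4 each, adjusted p = 0.556 by edgeR). Ccl19, a ligand of Ccr7, had 6 to 22 reads in PDT libraries and 28 reads in PBS 2 with 0 in the other PBS libraries (adjusted p = 0.788 by edgeR). Ccl21a, the other ligand of Ccr7, was at 11.7 to 20.65 CPM in PDT and 17.6 to 39.2 CPM in PBS, a log2 fold change of −0.69 ± 0.26 (SE, adjusted p = 0.215 by edgeR). The mouse genome holds near-identical copies of Ccl21a, so this value is uncertain. Csf2, which encodes GM-CSF, was at 0.961 ± 0.767 CPM in PDT and 1.54 ± 0.657 CPM in PBS (SD, n = 4 each, adjusted p = 0.697 by edgeR).

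MHC class II genes, through which dendritic cells, macrophages and B cells present peptides to CD4 T cells, were lower in PDT for 10 of 10 members, the median being −0.41 on the log2 scale. In edgeR 0 passed, 0 had an unadjusted p under 0.05, and DESeq2 and limma-voom called 0. At an unadjusted p under 0.05 there were 1 in DESeq2 and 4 in limma-voom, against 17.2% and 18.7% of all tested genes. The median in limma-voom was −0.61. H2-Aa was at 171, 385, 163 and 216 CPM in PDT 1 to PDT 4, against 296, 434, 286 and 351 CPM in PBS 1 to PBS 4 (adjusted p = 0.313 by edgeR). H2-Ab1 was at 115 to 233 CPM in PDT and 192 to 352 CPM in PBS (adjusted p = 0.42 by edgeR). PDT 2 again held the highest class II sum of its group, 1801 CPM, while PDT 1, PDT 3 and PDT 4 had 799 to 1203 CPM and PBS libraries had 1244 to 2140 CPM. Without PDT 2 the median was −0.63, and 0 passed in edgeR. In that fit 3 of the 10 had an unadjusted p under 0.05, as did 2848 of 17063 tested genes. As PDT 2 held the highest sum of its group, a lower class II sum in PDT without it was fixed in advance. Without PDT 3 only 8 of the 10 were lower, and the median was −0.20.

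Markers of other cell types differed unevenly beside these results. Among macrophage genes Ly6c2, of inflammatory monocytes, differed by 2.46 ± 0.44 on the log2 scale (SE, adjusted p = 0.051 by edgeR). Neutrophil genes were higher in PDT for 7 of 7 tested members, with a summed level of 156 to 534 CPM in PDT and 80.6 to 223 CPM in PBS, led by Csf3r at 1.37 and Mmp9 at 1.78 (log2 fold changes, adjusted p = 0.0515 and 0.104 by edgeR). PDT 2 had the lowest neutrophil sum of its group. The T cell gene with the smallest p was Cd3d at 1.39 (adjusted p = 0.193), and the B cell genes were Cd79b at 0.22 and Blk at 0.23 (adjusted p = 0.795 and 0.811). Of 8 endothelial genes 5 were higher and 3 lower in PDT, and those with the smallest p were Erg at 0.83 and Tie1 at 0.50 (adjusted p = 0.167 and 0.287). Of 6 fibroblast genes 3 were higher and 3 lower, and those with the smallest p were Col1a1 at 0.54 and Pdgfra at 0.36 (0.165 and 0.334). For tumour epithelium these were Cldn4 at −0.66 and Krt19 at 0.34 (adjusted p = 0.533 and 0.609), and for microglia Sall1 at −0.63 and Tmem119 at 0.38 (0.101 and 0.354). Langerhans cells, the dendritic cells of the epidermis, were represented by Cd207, which had 0 reads in 6 libraries and did not pass the filter, and by Cd1d1 at 0.27 and Epcam at 0.02, which are not specific to them (adjusted p = 0.709 and 0.993). Keratinocyte genes of skin, Krt14 at −0.61 and Krt10 at 0.05 (adjusted p = 0.633 and 0.976), summed to 14.2 to 50.9 CPM with Krt1 and Krt5 in PDT and 13.9 to 95.4 CPM in PBS.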

How the data were processed

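RNA depleted of rRNA went into strand-marking libraries, per the labels' protocols. The authors deposited raw counts of reads per gene (57132 genes, 8 libraries), per the file headers. The submitters' processing notes name GRCm39, STAR 2.7.11b and cutadapt 4.6. Counting tool, strand setting and annotation: not given in the sources used here. Genes sharing reads with a relative, an overlapping or an antisense neighbour are therefore uncertain. Of counts from 1 to 20, 77.9% to 83.8% were even, as when both reads of a pair are counted, and limits drawn from reads cover counting error only. The 484 genes without a symbol held 0.0128% to 0.0176% of reads and were kept.

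Counts were tested with edgeR 4.0.16 (R 4.3.3): filterByExpr (16588 genes, 0.0694% to 0.109% of reads removed), TMM scaling, quasi-likelihood fit of PDT minus PBS without covariates, and Benjamini-Hochberg adjustment over all tested genes at 0.05. Every pair of libraries differed beyond counting noise (chi-square per degree of freedom 62.1 to 191 over 28 pairs). Exon lengths came from GENCODE M21, matched by identifier. The fit was tested on simulated data. It recovered 4.48% of 1.5-fold, 47.8% of 2-fold and 78.8% of 4-fold simulated differences, and 6 of 93 calls were false. A marker that did not pass may therefore still differ. Alternatives were DESeq2 1.42.0, limma-voom (limma 3.58.1) with quality weights, other scalings and filters, a replicate block, counts divided by 2 and each library left out.

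The markers and lists were chosen with earlier results of these data known. Named besides the 10 markers were the 2 genes with the smallest p in each list, every listed gene past the threshold, Xcl1, Flt3l, Ccl19, Ccl21a and Csf2, and defining markers of other cell types at or near 0. Some genes under this rule are not reported here.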

Additional observations from a re-analysis of the deposited data

Results flagged for a closer look

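A library stood far from the other 3 of its group in 13 of 94 groups of 4 values examined, where chance gives about 1 in 20. Among the markers this was the case for Siglech, at 3.29 CPM in PBS 2 against 0.0526 to 0.4898 CPM in the other PBS libraries. Among ligands and growth factors, Flt3l reached 3.52 CPM in PDT 1, while PDT 2 to PDT 4 had 1.56 to 1.68 CPM. Ccl19 was at 0.668 CPM in PBS 2, and PBS 1, PBS 3 and PBS 4 had 0 reads. Birc3 was low in PBS 3, at 18.8 CPM, while PBS 1, PBS 2 and PBS 4 had 23.9 to 24.3 CPM.

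PBS 3 also stood apart from its group for Mmp9 at 64.0 CPM, Krt19 at 948 CPM and Krt10 at 17.98 CPM, which are genes of neutrophils and epithelium. Ly6c2 was high in PBS 2 at 3.96 CPM, and Pdgfra in PBS 1 at 48.0 CPM. In PDT 2, Sall1 at 10.9 CPM and Cd1d1 at 4.54 CPM were low for their group. Col1a1 was low in PDT 1 at 2597 CPM, and Krt14 was high in PDT 4 at 26.6 CPM.

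Ccr7, Flt3 and Xcr1 did not meet the same limit in PDT, although PDT 2 was the highest library for all 3.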

How the results depend on the processing

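In every alternative run, 0 of the markers tested passed the threshold (all 10 were tested, except 8 with 1 CPM required in 4 libraries, and DESeq2 gave no adjusted p for Xcr1, Clec9a and Siglech). The number of genes past it in the whole table, 39 (27 higher in PDT), was 69 (50 higher) with upper quartile scaling and 534 (395 higher) without a filter on low counts. It was 88 (60 higher) with 1 CPM required in 4 libraries, 67 (45 higher) with counts divided by 2, 869 (518 higher) in DESeq2 and 167 (100 higher) in limma-voom. It ran from 0 to 122 (0 to 106 higher) with 1 library left out, with 0 without PDT 1 or PBS 3 (2162 and 2349 genes at an unadjusted p under 0.05), 112 without PDT 2 and 122 without PBS 4. Among the other dendritic cell genes, 1 call, Sirpa, became 7 without the filter, 7 in DESeq2 and 3 in limma-voom, and 0 to 2 with 1 library left out. Markers whose groups do not overlap numbered 0 to 1 with 1 library left out.

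The replicate block gave 182 calls (148 higher) and 3 among the other dendritic cell genes, and turned Siglech to 0.59. Deviations of same-numbered samples correlated weakly (0.0385 to 0.069), and no PDT sample correlated best with the PBS sample of its own number. This gave no sign that the numbers are a pairing, but such a check cannot exclude a shared batch. Limma-voom turned Cd209a to −0.22. With 1 library left out, log2 fold changes turned sign for Xcr1 (−1.34 to 0.33), Batf3 (−0.21 to 0.47), Cd209a (−0.30 to 0.43), Siglech (−0.44 to 1.63), Zbtb46 (−0.31 to 0.0039), Flt3 (−0.44 to 0.66), Epcam (−0.25 to 0.64), Krt14 (−1.04 to 0.23) and Krt10 (−0.53 to 0.67). Ccr7 (−1.39 to −0.44), Clec9a (−1.14 to −0.49), Fscn1 (0.24 to 0.48) and Irf8 (0.38 to 0.68) kept their direction. Of 746 alternative values of the 47 named genes, 25 changed sign, 14 lost a call and 33 gained one. The cause of these shifts was not tested. Counting error is largest for Xcr1, Clec9a, Siglech and Flt3, with 0 to 140 reads per library.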
